A study of Mus musculus with 24 samples.

Results

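Contacts of the wild-type Oct4 allele were compared between 2 mouse embryonic stem cell lines, OCF2ΔYY1 and OCF2ΔOCT4/SOX2, called here the YY1 line and the OctSox line. The comparison took every library made from the wild-type Oct4 viewpoint, which is 8 of the 24 libraries of the series, 4 per line. They fall into 4 groups, the YY1 line at day 0 and day 3 and the OctSox line at day 0 and day 3, each with 2 replicates that the labels call biological. All cells were of strain C57Bl/6 x 129/Sv at passage 7. The labels give no treatment for either day, and they do not say how many clones stand behind a line. An effect of a line's mutation thus cannot be told apart from anything else in which the lines differ. The series names a mutated Oct4 allele on chromosome 11 after each line, Mut_YY1 and Mut_OctSox. The wild-type viewpoint on chromosome 17 carries the same name in both, so the comparison asks whether an allele with one name had different contacts in cells carrying different mutated alleles.

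Pou5f1 is the gene of Oct4, a transcription factor needed to keep embryonic stem cells pluripotent. YY1 is a zinc-finger protein that binds promoters and enhancers and is known to help hold them together, and OCT4 and SOX2 bind DNA side by side at many enhancers of these cells. In 4C, crosslinked chromatin is cut, here with HindIII, and religated, and the fragments joined to one chosen fragment, the viewpoint, are sequenced and counted. A fragment with many counts was often ligated to the viewpoint, which is read as nearness in the nucleus, and counts tend to drop with distance along the chromosome.

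The libraries differed in depth and in how much of it lay outside the viewpoint. The unit throughout is the read count per HindIII fragment of chromosome 17, in mm9 coordinates, over 25147 fragments that remain when the viewpoint fragment, from 35633988 to 35641095, and 1 fragment on either side are left out. The labels give no viewpoint position, and this fragment has the highest count pooled over the 8 libraries. OctSox day 0 replicate 1 alone gives 288366 of the pooled counts. In both YY1 day 0 libraries the fragment from 35643155 had more counts, 12382 against 5862 in replicate 1 and 2624 against 1458 in replicate 2. Outside the viewpoint the YY1 line had 333751 and 60962 counts in its day 0 libraries and 51489 and 7090 in its day 3 libraries. The OctSox line had 111908 and 18609 counts in its day 0 libraries and 160876 and 7976 in its day 3 libraries. Both day 3 replicate 2 libraries are therefore shallow, and a count of 0 there allows a share of up to 0.0423% in the YY1 library and 0.0376% in the OctSox library. OctSox day 0 replicate 1 stands apart in another way, with 70.9% of all its counts on the viewpoint fragment and 41.2% of the rest within 0.1 Mb. Its replicate partner had 8.58% and 14.1%. Reads amplified by PCR are not independent molecules, and the intervals and floors given here account for counting error alone.

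Both lines showed the same uneven profile around Oct4. Within 100 kb, contacts lay almost wholly on the side of higher coordinates. The 24 fragments on that side all had counts and together held 21.6%, 22.3%, 13.2% and 25.02% of the counts in the YY1 libraries (day 0 replicates 1 and 2, then day 3 replicates 1 and 2). They held 40.8%, 14.1%, 20.2% and 29.6% in the OctSox libraries in the same order. The 24 fragments on the lower side held between 0.0705% and 0.0845% in the YY1 line and between 0.0215% and 0.324% in the OctSox line. The low side was thus low in every library, and the lines overlapped on both sides.

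On the lower side 18 of those 24 fragments had no count in any of the 8 libraries. The other 6 lay 6.46 kb and then 50.8 to 77.9 kb from the viewpoint fragment, and none of them had a count in all 8. Contacts on the lower side were higher further out. At 100 to 250 kb it held 1.38% ± 0.517 in the YY1 line and 1.35% ± 0.263 in the OctSox line (SD, n = 4 each), against 8.82% ± 1.35 and 8.47% ± 0.94 on the higher side. At 250 to 500 kb the lower side reached 5.37% ± 1.63 in the YY1 line and 6.02% ± 2.11 in the OctSox line, with 50 of 51 fragments contacted. Over the whole 1 Mb on each side, the lower side held 20.3% ± 6.09 of the contacts in the YY1 line and 19.9% ± 7.14 in the OctSox line (SD, n = 4 each). The difference of 0.42 percentage points, YY1 minus OctSox, had a two-sided exact permutation p = 1 over line labels exchanged within a day. That test has 36 arrangements and cannot give a p below 0.0556.

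**Figure D1:**
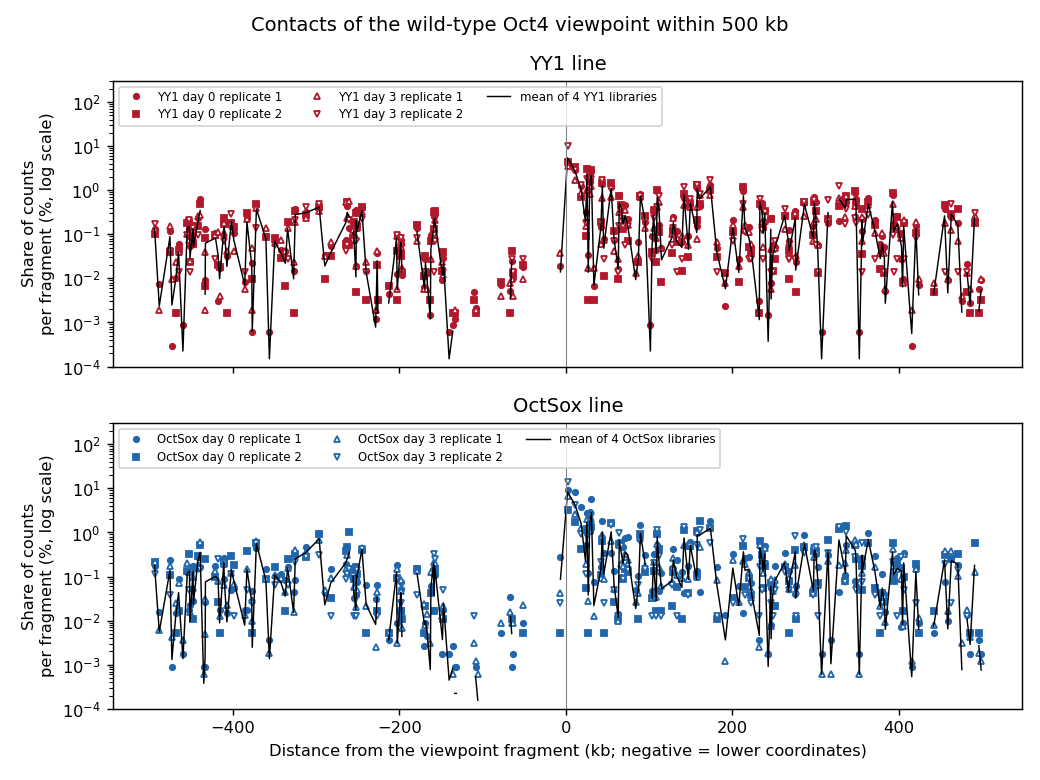
Share of the counts outside the viewpoint held by each HindIII fragment within 500 kb (vertical axis, percent, log scale) against distance from the viewpoint fragment (horizontal axis, kb), for the 4 YY1 libraries above and the 4 OctSox libraries below, with line means in black. A library with a count of 0 at a fragment is not drawn, and in both lines the 100 kb on the lower side are nearly empty while the 24 fragments within 100 kb on the higher side are all contacted.

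The most contacted fragments were all on the higher side, and 8 of the 10 lay within 60 kb. The leading one, 35643155 to 35652106, begins 2.06 kb above the viewpoint fragment. It held 3.71% (95% Wilson interval 3.65 to 3.77), 4.304% (4.15 to 4.47), 3.52% (3.37 to 3.68) and 10.2% (9.54 to 11.0) of the counts in the YY1 libraries, in the order given above. In the OctSox libraries it held 9.32% (9.15 to 9.50), 3.20% (2.96 to 3.47), 6.71% (6.59 to 6.83) and 14.2% (13.4 to 15.0). The highest value of each line was its day 3 replicate 2, the lowest of all 8 was OctSox day 0 replicate 2, and the lines overlapped. With YY1 over OctSox, its log2 difference was -0.71 ± 0.39 (SE), and the adjusted p was 0.998 by edgeR's quasi-likelihood test over all fragments.

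The next fragment, 35652113 to 35659414 at 11.0 kb, held 2.82%, 3.39%, 1.69% and 2.93% in the YY1 libraries, against 8.35%, 1.76%, 2.63% and 4.15% in the OctSox libraries. OctSox day 0 replicate 1 lay far above the other 7 libraries, which overlapped. The fragment at 11.0 kb had a log2 difference of -0.72 ± 0.45 (SE). The fragment 35671799 to 35674740 at 30.7 kb also had its highest share in OctSox day 0 replicate 1, with 2.74%, 2.92%, 1.24% and 1.79% in the YY1 libraries, against 5.61%, 1.31%, 2.04% and 2.32% in the OctSox libraries.

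Another fragment nearby had the opposite sign. The fragment 35666366 to 35668007 at 25.3 kb held 3.13%, 3.06%, 0.987% and 1.83% in the YY1 libraries, against 2.75%, 1.21%, 2.05% and 0.84% in the OctSox libraries, a log2 difference of 0.18 ± 0.52 (SE). Both YY1 day 0 libraries were above all 4 OctSox libraries, and YY1 day 3 replicate 1 was below 3 of them. The other 6 of the 10 had log2 differences between -0.68 and 0.23. In all, 4 of the 10 had a higher fitted level in the YY1 line and 6 a lower one, with a median log2 difference of -0.16 and a smallest unadjusted p of 0.0695 by edgeR. Together the 10 held 19.8% ± 5.88 of the counts in the YY1 line and 24.6% ± 10.4 in the OctSox line (SD, n = 4 each), from 11.8% to 25.8% and from 13.7% to 37.6%.

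**Figure D2:**
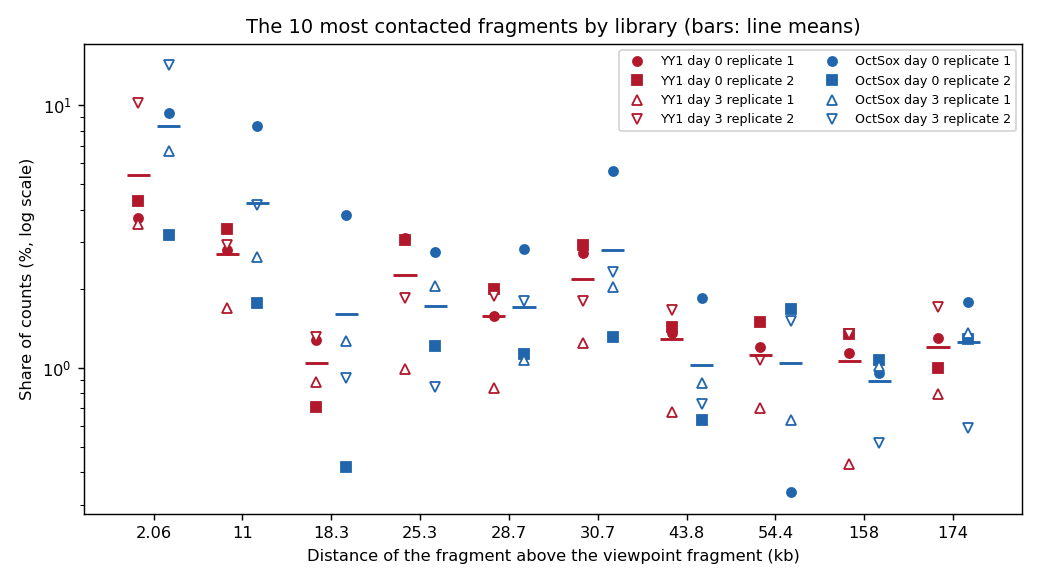
Share of counts (vertical axis, percent, log scale) of the 10 most contacted fragments, ordered by their distance above the viewpoint fragment (horizontal axis, kb), for each YY1 library (red, left) and OctSox library (blue, right), with a bar at each line's mean. The lines overlap at every one of the 10 fragments, and OctSox day 0 replicate 1 is the highest library at 11.0, 18.3, 28.7, 30.7, 43.8 and 174 kb.

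Across the chromosome no fragment passed the test of the line effect with day as a covariate. EdgeR called 0 of 1270 fragments tested (0%) at an adjusted p under 0.05, and the smallest adjusted p was 0.645. At an unadjusted p under 0.05 there were 62 (4.88%), of which 49 (3.86%) had the higher level in the YY1 line and 13 (1.02%) the lower. With the distance trend removed there were 92, split into 53 higher and 39 lower, so the lean to the YY1 line was smaller. Leaving out a library moved the count by over 1.5 times in 3 cases. It was 34 when YY1 day 0 replicate 2 was omitted (23 higher, 11 lower), 38 when its partner was omitted (30 and 8) and 39 without YY1 day 3 replicate 1 (24 and 15). DESeq2 called 1, described below. All 4 YY1 libraries lay above all 4 OctSox libraries by share at 13 fragments (1.02%) and below them at 8 (0.63%), 21 in all (1.65%). The lower line had a count of 0 in some library at all 21, and with each such 0 set to the floor of 3 counts in its library the lines stayed apart at 2, 1 in each direction.

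Fragments within 1 Mb of Oct4 had smaller errors and smaller differences than those further away. Of the 213 fragments tested within 1 Mb, 0 had an unadjusted p under 0.05 by edgeR. Within 0.1 Mb the 25 tested fragments had a median log2 difference of -0.33, and 7 of them were higher in the YY1 line. The 188 tested at 0.1 to 1 Mb had a median of -0.14, with 82 higher in the YY1 line. Beyond, the medians were 0.24 at 1 to 5 Mb (231 fragments), 0.35 at 5 to 20 Mb (586) and 0.13 over 20 Mb (240), beside 0.17 over all 1270. The median absolute log2 difference was 0.497 within 0.1 Mb and 0.424 at 0.1 to 1 Mb, against 0.792 over all fragments. The median SE was 0.857 within 0.1 Mb and 1.74 over all. Of the 213 near fragments, only 1 had libraries that did not overlap between the lines. The fragment 35218413 to 35223586, 410 kb away on the lower side, held 0.174%, 0.171%, 0.177% and 0% in the YY1 libraries, against 0.263%, 0.226%, 0.188% and 0.201% in the OctSox libraries. With a log2 difference of -0.66 ± 0.91 (SE) its adjusted p by edgeR was 0.998, and it was singled out after its values were seen.

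**Figure D3:**
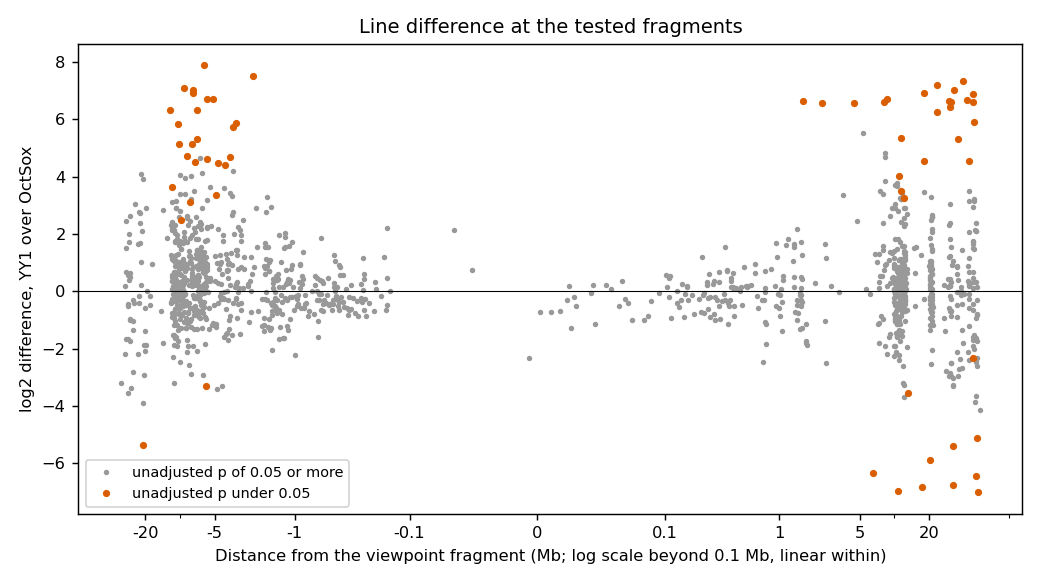
Log2 difference, YY1 over OctSox (vertical axis), of the 1270 tested fragments against distance from the viewpoint fragment (horizontal axis, Mb, log scale beyond 0.1 Mb), with the 62 fragments at an unadjusted p under 0.05 in orange. All of these lie more than 1 Mb away, 49 of them above 0 and 13 below, and none passed the adjusted threshold.

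Whether fragments beside Oct4 differed between the lines depended on which OctSox day 0 library was kept. Leaving out either one leaves that group with 1 library, whose spread is then taken from the other groups, so the adjusted p-values of these fits assume that it varies like them. Without OctSox day 0 replicate 2, edgeR called 2 fragments lower in the YY1 line, the leading one at 2.06 kb with a log2 difference of -1.02 and an adjusted p of 0.00051, and its neighbour at 11.0 kb with -1.06 and an adjusted p of 0.0387. Without OctSox day 0 replicate 1 it called 0, and the log2 difference of the neighbour was 0.0053. The contrast at day 0 alone moved in the same way. It called 5 fragments without OctSox day 0 replicate 2, where replicate 1, the library that stands apart, is the only one of its group, and of these the 3 at 2.06, 11.0 and 18.3 kb were lower in the YY1 line and the 2 at 142 and 213 kb were higher. At 213 kb (35854242 to 35856075) the shares were 0.941% and 1.15% at YY1 day 0, against 0.0152% and 0.494% at OctSox day 0. At 142 kb (35782941 to 35788200) they were 0.663% and 0.833% at YY1 day 0, against 0.0429% and 1.12% at OctSox day 0. At both, OctSox day 0 replicate 1 was the lowest of the 4 day 0 libraries, and at 142 kb its partner was the highest.

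The fragments with the smallest p for the line effect were far from Oct4 and rested on few counts. At 29500553 to 29503613, 6.13 Mb on the lower side, the YY1 libraries had 145, 5, 38 and 0 counts and all 4 OctSox libraries had 0. With the OctSox line set to 3 counts in all, the pooled YY1 share was at least 41.4-fold higher by counting error alone. YY1 day 0 replicate 1 held 145 of the 188 pooled YY1 counts, and by library the lines overlapped. The fragment's adjusted p was 0.645 by edgeR. At 33319321 to 33320418, 2.31 Mb on the same side, the YY1 libraries had 26, 23, 14 and 3 counts and the OctSox libraries 0, a bound of at least 14.5-fold over the pooled counts. By library the lines cannot be told apart there, since the 0 in OctSox day 3 replicate 2 allows a share of up to 0.0376%, above the 0.00779% of YY1 day 0 replicate 1 and the 0.0272% of YY1 day 3 replicate 1. Both fragments passed the filter on low counts through the YY1 libraries alone and were then picked by p. Their fold bounds pool reads over libraries and are no test of the line difference.

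The fragment that DESeq2 called lies between these in distance. At 32354870 to 32355955, 3.28 Mb on the lower side, the YY1 libraries had 63, 33, 9 and 27 counts and the OctSox libraries 0, 0, 8 and 0. As shares these were 0.0189%, 0.0541%, 0.0175% and 0.381% in the YY1 line, against 0.00497% in OctSox day 3 replicate 1. The 0 in OctSox day 3 replicate 2 allows a share of up to 0.0376%. This is above YY1 day 0 replicate 1 and YY1 day 3 replicate 1, so by library the lines cannot be told apart there. DESeq2 gave a log2 difference of 6.00 with an adjusted p of 0.027, and edgeR 5.89 ± 1.81 (SE) with an adjusted p of 0.645. At the other 2 of the 5 smallest p-values the lines overlapped, as they did at 29500553, where YY1 day 3 replicate 2 had 0 counts. At 14655784 to 14657774, 21.0 Mb away, there were 0, 0, 3 and 0 counts in the YY1 libraries, against 0, 14, 184 and 0 in the OctSox libraries. At 75533080 to 75535472, 39.9 Mb away on the higher side, there were 0, 6, 10 and 9 counts in the YY1 libraries, against 0 in the OctSox libraries. This fragment too passed the filter through the YY1 libraries alone.

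Within single days the test had 2 libraries per line and also called none. At day 0 edgeR made no call among 1270 fragments (0%), 68 of which (5.35%) had an unadjusted p under 0.05, and DESeq2 called 0. Of the 68, 55 were higher in the YY1 line and 13 lower. Single libraries decided this count, which was 8 and 7 with replicate 1 or 2 of YY1 day 0 left out, and 29 without OctSox day 0 replicate 1, with 9 higher and 20 lower. The smallest p belonged to 56759436 to 56766582, 21.1 Mb away, with 110 and 87 counts in the YY1 line and 0 and 0 in the OctSox line, where the same fragment had 51 counts at day 3. At day 3 edgeR made no call among 1270 (0%), 29 of which (2.28%) had an unadjusted p under 0.05, and DESeq2 called 0. This count was 6 and 9 without YY1 day 0 replicates 2 and 1, 16 without YY1 day 3 replicate 2, 17 and 18 without OctSox day 3 replicates 2 and 1, and 45 without OctSox day 0 replicate 2. The smallest p there belonged to 63809433 to 63817108, 28.2 Mb away, with 0 and 0 counts in the YY1 line and 2 and 18 in the OctSox line, while the YY1 day 0 replicates had 420 and 0. Counts at such fragments thus differed widely between replicates of one line.

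The difference between the lines did not pass the test for a change from day 0 to day 3 at any fragment. The interaction term called 0 of 1270 (0%) by edgeR and 0 by DESeq2, and 58 (4.57%) had an unadjusted p under 0.05 in edgeR. That count was 22 and 14 with replicate 1 or 2 of YY1 day 0 left out, and 33 without OctSox day 3 replicate 1. The 2 smallest p-values belonged to fragments whose counts at the 2 days were exchanged between the lines. At 37698652 to 37699284, 2.06 Mb on the higher side, the YY1 line had 76 and 43 counts at day 0 and 0 and 0 at day 3, and the OctSox line had 0 and 0 at day 0 and 3 and 15 at day 3. At 24980200 to 24981292, 10.7 Mb on the lower side, the YY1 line had 78 and 16 and then 0 and 0, and the OctSox line 0 and 0 and then 30 and 15. Their adjusted p was 0.596 each by edgeR. Without OctSox day 0 replicate 1 the interaction called 1 fragment, the leading one at 2.06 kb, with a log2 value of -1.67 and an adjusted p of 0.00684, and OctSox day 0 is then replicate 2 alone, the lowest of all 8 libraries there. Without OctSox day 0 replicate 2 it called the one at 213 kb, with -6.14 and an adjusted p of 0.00925, and OctSox day 0 is then replicate 1 alone, with 0.0152% there. Both p-values take the spread of the lone library from the other groups.

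The spread of contacts over distance overlapped between the lines in every band. Up to 0.1 Mb the share of counts was 20.6% ± 5.12 in the YY1 line and 26.3% ± 11.8 in the OctSox line (SD, n = 4 each). From 0.1 to 1 Mb it was 27.8% ± 4.49 and 28.3% ± 4.78, from 1 to 5 Mb 9.11% ± 0.655 and 7.75% ± 2.33, from 5 to 20 Mb 23.2% ± 2.68 and 20.0% ± 4.28, and over 20 Mb 19.3% ± 5.82 and 17.6% ± 4.83, YY1 before OctSox each time. The exact permutation p-values adjusted over the 5 bands were between 0.694 and 0.889. In the nearest band the OctSox libraries ranged from 14.1% to 41.2%, a wider span than the 13.2% to 25.1% of the YY1 libraries. Without OctSox day 0 replicate 1 the difference in that band was 1.07 percentage points, YY1 minus OctSox, in place of -5.69. From 1 to 5 Mb the YY1 libraries lay within 8.15% and 9.63% and the OctSox libraries between 5.18% and 10.5%.

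**Figure D4:**
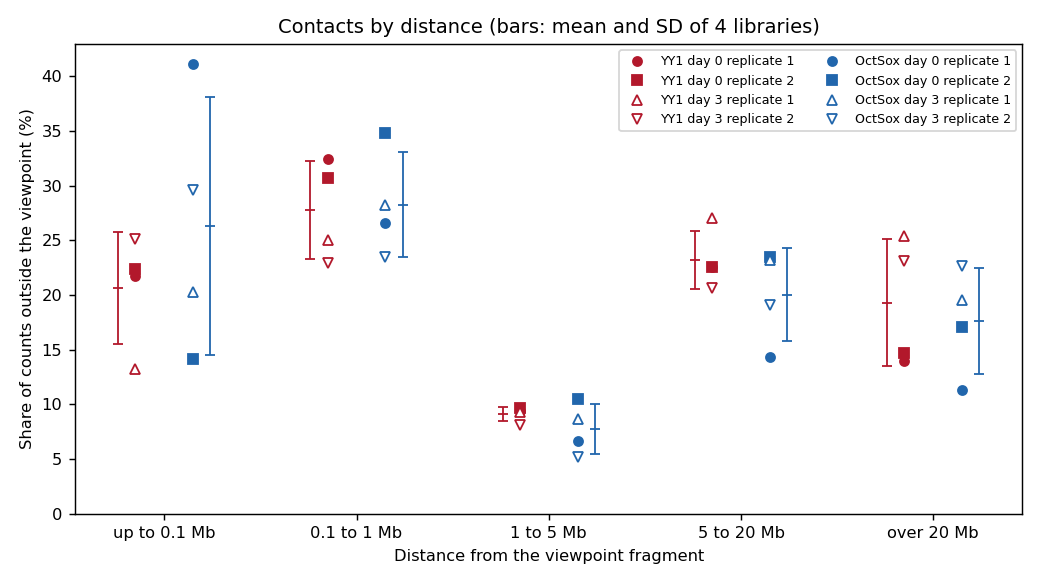
Share of the counts outside the viewpoint (vertical axis, percent) in 5 bands of distance from the viewpoint fragment (horizontal axis), one point per library, YY1 in red on the left and OctSox in blue on the right, with the mean and SD of 4 libraries per line. Ranges of the lines overlap in each band, and up to 0.1 Mb the OctSox values run from 14.1% to 41.2%.

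The steepness of the decay and the number of fragments contacted were close as well. Between 20 kb and 20 Mb the slope of contact on distance, both as log10, was -0.94 ± 0.069 in the YY1 line and -0.98 ± 0.097 in the OctSox line (SD, n = 4 each, exact permutation p = 0.444). At an equal depth of 7090 counts, the expected number of contacted fragments within 1 Mb was 231, 202, 223 and 140 in the YY1 libraries, against 212, 193, 225 and 149 in the OctSox libraries. The lowest value of each line was its day 3 replicate 2. The means were 199 ± 41.2 and 195 ± 33.2 (SD, n = 4 each, exact permutation p = 0.889). Fragment length, a measure added after seeing the data, separated the lines at day 0 more than at day 3. The 75 fragments over 8 kb within 1 Mb held 15.0%, 15.6%, 23.6% and 30.3% of the contacts there in the YY1 libraries, against 24.4%, 22.2%, 25.1% and 35.2% in the OctSox libraries. Both YY1 day 0 values were below all OctSox values, and the difference over both days was -5.60 percentage points (exact permutation p = 0.111). The 63 fragments up to 1 kb held 7.47% ± 3.24 in the YY1 line and 5.17% ± 2.05 in the OctSox line (exact permutation p = 0.389).

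The share at 2 to 5 Mb was higher in every YY1 library than in every OctSox library, on both sides of Oct4. On the lower side it was 3.72%, 3.58%, 4.15% and 4.65% in the YY1 libraries, against 2.47%, 3.42%, 3.58% and 1.71% in the OctSox libraries. On the higher side it was 0.742%, 1.31%, 0.851% and 0.959% in the YY1 libraries, against 0.339%, 0.699%, 0.566% and 0.476% in the OctSox libraries. The lines did not overlap on either side, though on the lower side the nearest values were 3.583% in the YY1 line and 3.581% in the OctSox line. The differences were 1.23 and 0.444 percentage points, each with p = 0.0556 by the exact permutation test, which with 36 arrangements cannot go lower. Adjusted over the 12 combinations of side and distance compared, the p was 0.333 for both, so neither passed. These bins were chosen after seeing the data. Without both day 3 replicate 2 libraries the difference on the lower side was 0.634 points. When each fragment was counted once, whatever its counts, the difference was -0.117 on the lower side and 0.723 on the higher side. In the other 10 bins the lines overlapped.

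**Figure D5:**
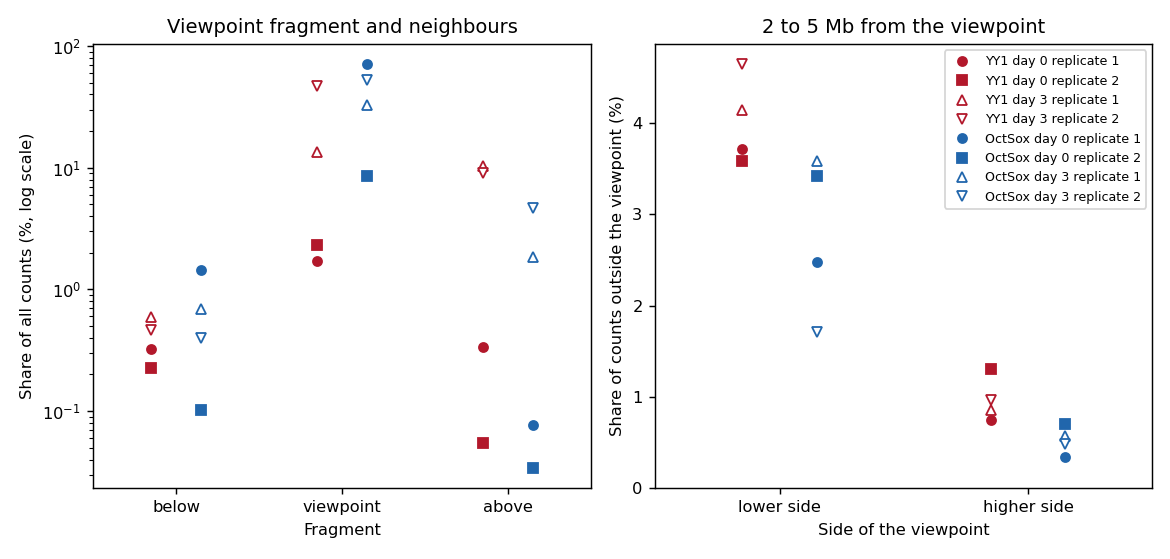
Left, share of all counts (vertical axis, percent, log scale) on the viewpoint fragment and on the fragments below and above it, by library. Right, share of the counts outside the viewpoint (vertical axis, percent) at 2 to 5 Mb on each side, where the 4 YY1 libraries (red) lie above the 4 OctSox libraries (blue) on both sides, with nearest values of 3.583% and 3.581% on the lower side.

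Windows of 500 kb, which sum the fragments within them, gave no calls either. EdgeR called 0 of 185 windows (0%) and DESeq2 0, and 2 (1.08%) had an unadjusted p under 0.05 in edgeR, or 3 to 11 when 1 library was left out. The 5 most contacted windows, from 34000001 to 36500000, had log2 differences between -0.47 and -0.31. The window that holds the viewpoint, 35500001 to 36000000, held 37.8%, 37.8%, 24.5% and 38.9% of the counts in the YY1 libraries, against 54.0%, 30.2%, 32.9% and 43.3% in the OctSox libraries. At 4 of the windows (2.16%) all YY1 libraries were above all OctSox libraries, and at 0 (0%) below.

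A pair of adjoining windows stood among the 5 with the smallest p, both higher in the YY1 line. From 40000001 to 40500000 there were 244, 70, 94 and 25 counts in the YY1 libraries, against 5, 8, 103 and 4 in the OctSox libraries. As shares these were 0.0731%, 0.115%, 0.183% and 0.353% in the YY1 line and 0.00447%, 0.043%, 0.064% and 0.0502% in the OctSox line, without overlap. The log2 difference was 2.05 ± 0.69 (SE), with an edgeR adjusted p of 0.991. From 39500001 to 40000000 the shares were 0.0375%, 0.0623%, 0.033% and 0.226% in the YY1 line and 0.0197%, 0.00537%, 0.0205% and 0.0251% in the OctSox line, again without overlap, with a log2 difference of 1.82 ± 0.89 (SE) and the same adjusted p. Both windows lie within the 2 to 5 Mb on the higher side described above. They hold part of the same counts and were picked by p, so they are not a second observation. In YY1 day 3 replicate 2 they held 0.353% and 0.226%, out of 0.959% in that bin. In OctSox day 3 replicate 2 they held 0.0502% and 0.0251%, out of 0.476%. Whether the lines stay apart in that bin without these windows was not tested. The second smallest p belonged to 84000001 to 84500000, where the YY1 line was lower, with 0.377%, 0.615%, 0.48% and 0.353% in the YY1 libraries, against 0.305%, 1.20%, 0.436% and 1.54% in the OctSox libraries. The 2 highest values were both replicate 2 libraries of the OctSox line.

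Few contacts recurred in all libraries, and most of those were close to Oct4. Of the 25147 fragments, 139 had a count in all 8 libraries and 10377 had none in any. Of the 139, 20 lay within 0.1 Mb and 88 at 0.1 to 1 Mb. Beyond 5 Mb 22 fragments had a count in all 8, with a median length of 6316 bp, against 2590 bp for all 22695 fragments at that distance. The leading one, 84285455 to 84304319, lies 48.6 Mb away and is 18865 bp long. It lies in the last of the windows above and held 0.0297%, 0.217%, 0.0272% and 0.0987% in the YY1 libraries, against 0.0277%, 0.914%, 0.0112% and 1.10% in the OctSox libraries. Replicate 2 exceeded replicate 1 in each of the 4 groups there, by the most in the OctSox line. At 17 of the 25147 fragments all 4 YY1 libraries had counts and the OctSox libraries had none, and at 1 the reverse was true. Whatever the other line had, 419 fragments had counts in all 4 YY1 libraries and 284 in all 4 OctSox libraries. The day 0 replicate 2 library of the YY1 line had 60962 counts outside the viewpoint, against 18609 in that of the OctSox line, and the part of depth in this imbalance was not tested.

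Libraries of different lines were about as alike as replicates of one line, but every replicate pair set replicate 1 against a shallower replicate 2. The part of this difference in depth was not tested. Over the 108 fragments within 1 Mb with counts in all 8 libraries, the median absolute log2 difference in share between libraries of different lines at the same day was 0.861 (0.568 to 0.98 over 8 pairs). Between replicates of a line and day it was 1.02 (0.374 to 1.17 over 4 pairs). The closest replicates were those of YY1 day 0 and the farthest those of OctSox day 0. Of each library's 50 most contacted fragments, a median of 31 were shared between lines at the same day (24 to 38) and 26.5 between replicates (25 to 43). The lists together held 125 fragments, of which 16 were in all 8 lists, all within 1 Mb, and 58 in only 1. Across the 439 fragments within 1 Mb, Spearman's rho was 0.715 to 0.942 between lines at the same day and 0.736 to 0.937 between replicates. Beyond 5 Mb it was 0.0644 to 0.38 and 0.139 to 0.45. These are descriptions over fragments, which share library and depth. Within 1 Mb rho was at most 0.793 in any pair with a day 3 replicate 2 library.

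The fragment set as the viewpoint took a smaller mean share of all counts in the YY1 line, and the difference did not pass the test. It averaged 16.1% ± 21.3 in the YY1 line and 41.2% ± 26.8 in the OctSox line (SD, n = 4 each, exact permutation p = 0.222). At day 0 the YY1 libraries had 1.71% and 2.33% and the OctSox libraries 70.9% and 8.58%. At day 3 they had 13.5% and 47.0% in the YY1 line and 32.6% and 52.7% in the OctSox line. With nothing left out at the viewpoint, edgeR called this fragment at day 0, with a log2 difference of -6.07 and an adjusted p of 4.8e-06, and in the interaction, with 5.12 and an adjusted p of 0.045. The fragment just above it, 35641102 to 35643148, had 0.338% and 0.0543% of all counts at YY1 day 0, against 0.0775% and 0.0343% at OctSox day 0, and 10.4% and 9.04% at YY1 day 3, against 1.86% and 4.70% at OctSox day 3. At day 0 the lines overlapped and at day 3 they did not. The difference over both days was 3.29 percentage points (exact permutation p = 0.111). The fragment just below, 35627532 to 35633981, held 0.401% ± 0.16 in the YY1 line and 0.661% ± 0.581 in the OctSox line (SD, n = 4 each).

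The other viewpoints of these lines, tested in the same way, gave few edgeR calls too. DESeq2 called the most at the viewpoint where the most fragments were tested. At the mutated Oct4 allele, which also differs by name between the lines, edgeR called 3 of 659 fragments (0.455%) between the lines, 1 higher and 2 lower in the YY1 line, and DESeq2 called 3. At the region called 154.9 on chromosome 4 edgeR called 0 of 9241 (0%). The DESeq2 calls were 49 of 9241 at 154.9, 3 of 659 at the mutated allele and 1 of 1270 at the wild-type viewpoint. These counts are over unlike numbers of fragments. At 154.9, 775 (8.39%) had an unadjusted p under 0.05 in edgeR. That share was 6.37% at the mutated allele and 4.88% at the wild-type viewpoint. The difference between viewpoints was not tested.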

How the data were processed

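The submitters' processing notes name Bowtie and the mm9 build. The aligner's version and the way of counting are not given in the sources at hand. The deposited values are raw counts of reads for each HindIII fragment, here placed by the order of the deposited list of positions. The available gene annotation is of another build, so no gene was assigned to a fragment. The viewpoint fragment was left out together with 1 fragment on each flank.

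Fragments kept by filterByExpr (minimum count 10) and windows of 500 kb went into edgeR 4.0.16 under R 4.3.3 (TMM, glmQLFit, glmQLFTest, day as covariate, Benjamini-Hochberg at 0.05). The SE is the absolute log2 difference over the square root of F. The lines were compared in all 8 libraries, at each day with 2 libraries per line, and by a line by day interaction. DESeq2 1.42.0 was an alternative. Shares and slopes were compared by exact two-sided permutation of line labels within days. Other steps ran in Python 3.11.15 with pandas 2.3.3, numpy 2.4.6, matplotlib 3.10.9 and scipy 1.17.1. The edgeR test was tested on simulated counts, where it recovered nearly all planted changes at a small spread, but few or none at the spread fitted here, so a lack of calls does not show that the lines are alike. P-values set the line difference against the spread between these libraries. The number of clones per line is not given, so they do not cover variation between independent clones.

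The members, lists and tests were chosen with earlier results of these data known. Named fragments were, per test, the 8 largest differences in each direction among those that passed with lines not overlapping, or, where fewer than 5 passed, the 5 smallest p-values at least 20 kb apart, plus the 10 most contacted. For windows they were the 5 smallest p-values and the 5 most contacted. The day 0 and day 3 lists are given by their leading entries. Alternatives were other size factors, filters, viewpoint exclusions and window sizes, removal of a distance trend, a replicate block, and leaving out each library. The setting without both day 3 replicate 2 libraries, the fit within 1 Mb alone, the fragment length classes and the distance bins by side were added after seeing the data.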

Additional observations from a re-analysis of the deposited data

Results flagged for a closer look

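Over 35 measures, 70 sets of 4 libraries of a line were examined for a library far from the others, and 2 had one, where chance gives about 1 in 20. YY1 day 3 replicate 2 had 10.2% of its counts on the fragment 35643155 to 35652106, against 3.52% to 4.304% in the other 3 YY1 libraries. OctSox day 0 replicate 2 had 9.92% of its counts at 250 to 500 kb on the higher side, against 7.45% to 7.85% in the other 3 OctSox libraries.

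The same 35 measures were screened for lines that lay apart in opposite directions at the 2 days, and 2 did. With 2 libraries per line and day such a pattern arises readily by chance, and this difference between days was not tested. In these 2 distance bins both YY1 libraries lay above both OctSox libraries at day 0 and below them at day 3. At 100 to 250 kb on the lower side the YY1 libraries had 1.87% and 1.72% at day 0 and 1.21% and 0.733% at day 3. The OctSox libraries had 1.40% and 1.07% at day 0 and 1.69% and 1.23% at day 3, so the mean difference at day 0 was 0.556 percentage points. At 1 to 2 Mb on the higher side the YY1 libraries had 1.74% and 2.01% at day 0 and 1.12% and 0.536% at day 3. The OctSox libraries had 1.08% and 1.67% at day 0 and 1.49% and 1.17% at day 3. Their mean difference at day 0, YY1 minus OctSox, was 0.501 percentage points.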

How the results depend on the processing

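Over 60 results and 894 comparisons with another setting, 847 were scored as unchanged. For log2 differences this meant the same direction and side of the adjusted threshold, and for counts of calls an unchanged count. Shares and slopes could change only in direction, since their exact permutation p cannot fall below 0.0556. The count of called fragments was 1 by DESeq2 for the line effect, 1 with nothing left out at the viewpoint at day 0, and 1 with nothing left out for the interaction. Leaving out 1 library gave 0 to 2 calls for the line effect, 0 to 5 at day 0, 0 at day 3, 0 to 1 for the interaction and 0 among windows. Whether the numbers pair the replicates was not settled. Correlations of replicate differences over 1270 fragments were 0.0174 between the lines at day 0 and 0.13 at day 3. Replicate 2 was the shallower library in each group. With replicate number as a block edgeR called 0 in each fragment test and 0 windows. Its fragments at an unadjusted p under 0.05 numbered 64, 43, 17 and 49 for the line effect, day 0, day 3 and the interaction.

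Some differences, YY1 minus OctSox, turned sign. The band 0.1 to 1 Mb gave 5.78 points when the viewpoint was kept in, with fragments counted in place of counts the band 1 to 5 Mb gave -0.434 and the lower side at 2 to 5 Mb -0.117, and with 3 fragments on either side left out the lower-side share within 1 Mb gave -0.849. Leaving out 1 library, the ranges were -12.4 to 1.07 points up to 0.1 Mb, -2.56 to 1.57 at 0.1 to 1 Mb, -3.29 to 4.13 for the lower side, -0.012 to 0.096 for the slope, -16.6 to 25.1 fragments at equal depth, and -0.598 to 0.0786 points for the fragment below the viewpoint. Log2 differences of most contacted fragments also turned. The one at 35814628 gave 0.0056 with median-ratio size factors, 0.013 with the replicate block, 0.17 with the distance trend removed and 0.0098 fitted within 1 Mb alone. The one at 35695529 gave -0.016 at a median count of at least 40, -0.19 with the trend removed and -0.012 within 1 Mb alone. Without both day 3 replicate 2 libraries, 35684940 gave -0.014, 35798798 gave -0.10 and the window from 50000001 gave 0.19. Leaving out 1 library turned 8 of the 10, with log2 ranges of -1.06 to 0.0053 (35652113), -0.86 to 0.11 (35671799), -0.18 to 0.71 (35666366), -0.49 to 0.26 (35669786), -0.997 to 0.49 (35659421), -0.39 to 0.21 (35814628), -0.059 to 0.78 (35684940) and -0.16 to 0.52 (35695529), and the window from 50000001, with -1.69 to 0.10. The cause was not tested.

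In the shallowest library, YY1 day 3 replicate 2, 31.9% of fragments within 1 Mb had a count (95% Wilson interval 27.7 to 36.4), and 3.75% of all. The share of fragments with a count did not follow depth in every library: YY1 day 3 replicate 1 reached 26.1% of all fragments with 51489 counts, and OctSox day 0 replicate 1 19.3% with 111908. The part of depth was not tested.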
